A study of Mus musculus with 6 samples.

Results

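Endothelial cells line blood vessels, and pericytes are the mural cells that wrap the smallest of them. In the mouse the embryonic retina has no vessels of its own: it is fed by the choroid outside and by the hyaloid vessels that run over its inner surface beside the layer of retinal ganglion cells (RGCs), the neurons whose axons form the optic nerve, and retinal vessels grow in from the optic nerve head around birth. Vascular endothelial growth factor (VEGF) acts on endothelial cells through the receptors Kdr and Flt1, angiopoietins act through Tek with Tie1, and platelet-derived growth factor B released by the endothelium recruits pericytes through Pdgfrb. Markers of these cells were examined as a check for vascular RNA in RGCs purified from E16.5 retina.

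The 10 markers were Pecam1, Cldn5, Kdr, Flt1, Tek, Tie1 and Esam for endothelial cells, and Pdgfrb, Rgs5 and Cspg4 for pericytes. They were 10 of 18193 genes named by the array annotation, and all 18 probe sets annotated to 1 of these symbols alone were taken, of 45037 probe sets without controls. A probe set is a group of short probes that is summarized as 1 value for a transcript. All samples came from C57BL/6J mouse embryos with no altered gene named (labelled E16, and E16.5 in the protocol). Tetramethylrhodamine dextran (MW 3000) was placed on the cut optic tract for 2 h, so that it was carried back to RGC somas on the same side (ipsilateral RGCs) or on the opposite side (contralateral RGCs). In each of 3 rounds the retinas of 2 litters were pooled by side and dissociated with papain, and rhodamine-positive cells were sorted by FACS away from DAPI-stained dead cells. Each sample was thus a pool of embryos, the 3 rounds were picked for high Zic2 in ipsilateral RGCs, and no step against endothelial cells or pericytes that carried the dye is described.

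Values are log2 intensities, and a difference is the ipsilateral value less the contralateral value in log2 units, where 1 stands for 2-fold. The arrays of a round resembled each other more than those of a side: array medians were 5.80 to 5.81 in round 1, 6.65 to 6.70 in round 2 and 6.26 to 6.33 in round 3. Probe sets were tested with limma where their mean over the 6 arrays reached 4.74, the 20th percentile, here called the filter level. A call required a 2-fold difference and a Benjamini–Hochberg adjusted p under 0.05, with the p adjusted over all 36029 probe sets kept. The nominal threshold was 2-fold with p under 0.05 before adjustment. Of 12 measured pan-RGC genes, 12 lay above the median of the array on all 6 arrays. All 12 were lower in ipsilateral RGCs in all 3 rounds (18.7% of all named genes), with a median log2 difference of −0.38. By limma 0 were called, and 0 reached the nominal threshold.

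Most endothelial and pericyte markers lay below the middle of the range of the arrays on both sides. Of the 18 probe sets, 8 lay under the filter level and 10 were tested, which covered 8 of the 10 genes (15.6% of all named genes had no probe set at that level). Only Kdr, Pdgfrb and Cspg4 had a probe set above the median of the array on all 6 arrays, and the brightest probe sets of the other 7 genes lay under that median on all 6. The angiopoietin receptor genes Tek and Tie1, each with a single probe set, lay under the 20th percentile of every array. Passing the filter level is no sign of expression by itself. Of 25 genes of organs outside the eye, such as liver, testis, lung and pancreas, 19 passed it and 6 (24%) reached the median of all probe sets, compared with 3 (30.0%) of the 10 markers and 58.3% of all named genes. No sample with a known amount of vascular RNA was among the arrays, so the smallest share of vascular cells that would show is unknown. In bulk samples, fewer cells of a type and less RNA per cell cannot be told apart.

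**Figure D1:**
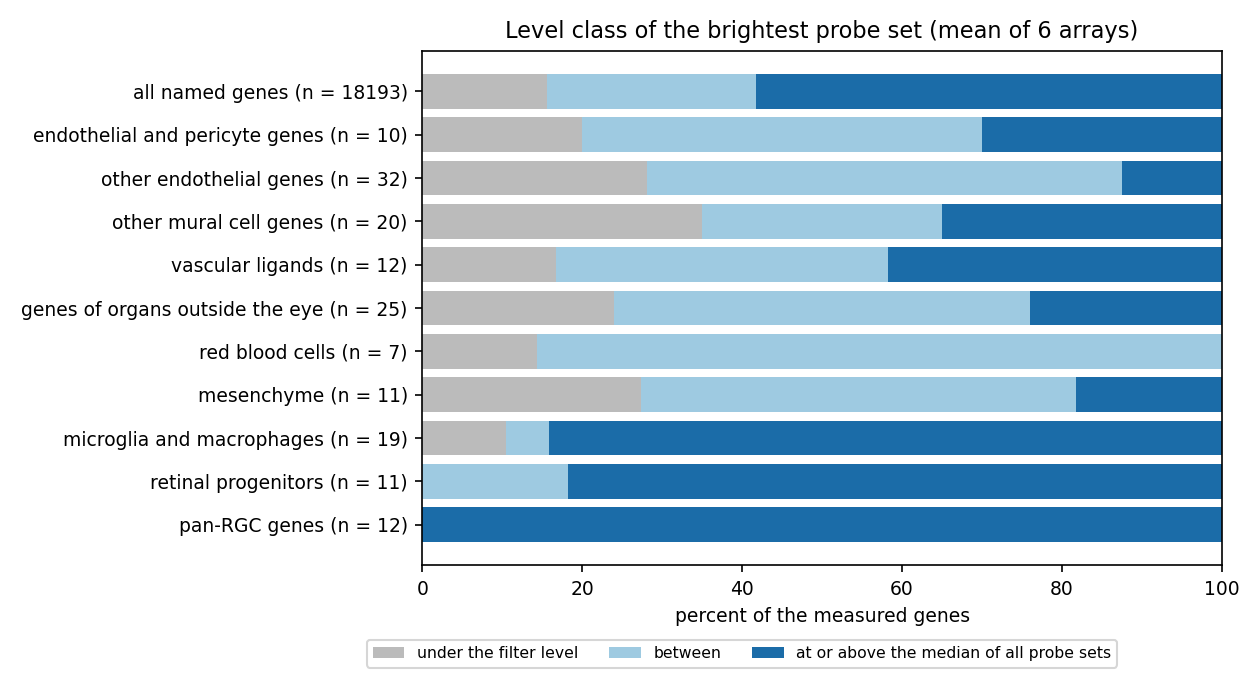
Share of measured genes of each list (horizontal axis, percent) whose brightest probe set had a mean over 6 arrays under the filter level (grey), between it and the median of all probe sets (light blue), or at or above that median (dark blue). The endothelial and pericyte genes have 30.0% in the highest class and the genes of organs outside the eye 24%, against 58.3% of all named genes and 100% of the pan-RGC genes.

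Pecam1 (CD31), an adhesion molecule at endothelial cell junctions that is also found on platelets and leukocytes, had log2 levels of 4.61, 5.83 and 5.09 in ipsilateral and 4.69, 5.95 and 5.16 in contralateral RGCs of rounds 1 to 3 (probe set 1421287_a_at). Cldn5, the tight junction claudin of brain and retinal endothelium, had levels of 4.84, 5.86 and 5.29 in ipsilateral and 5.03, 5.98 and 5.40 in contralateral RGCs (1417839_at). Esam, an adhesion molecule of endothelial tight junctions, had levels of 4.22, 5.79 and 6.17 in ipsilateral and 4.57, 6.23 and 6.26 in contralateral RGCs (1460356_at). For each of these 3 junction genes the ipsilateral sample was slightly lower in every round, while the sides overlapped because the rounds lay further apart than the sides. The mean log2 differences were −0.09 for Pecam1, −0.14 for Cldn5 and −0.29 for Esam (SE 0.46, 0.43 and 0.58), each with a limma adjusted p of 1. The SE and p given for a gene take no account of the rounds unless stated. When the samples of a round were paired, the SE were 0.14, 0.14 and 0.15 (limma adjusted p = 0.824, 0.708 and 0.464).

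Tek and Tie1 had no tested probe set. Tek, the tyrosine kinase receptor for angiopoietins, had log2 levels of 3.56, 4.02 and 4.61 in ipsilateral and 3.47, 4.40 and 4.42 in contralateral RGCs (1418788_at). Tie1, its partner receptor, had levels of 3.69, 4.70 and 4.77 in ipsilateral and 3.30, 4.73 and 4.85 in contralateral RGCs (1416238_at). The sides overlapped for both and neither kept its sign over the rounds. The measured differences were −0.03 for Tek and 0.09 for Tie1, and neither was tested.

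Flt1, the VEGF receptor that binds VEGF-A tightly and signals weakly, was represented by 4 probe sets, of which 2 were tested. Its brightest probe set (1451756_at) had log2 levels of 4.53, 5.73 and 5.45 in ipsilateral and 4.90, 5.43 and 5.38 in contralateral RGCs, with a difference of −0.37, 0.30 and 0.07 in rounds 1 to 3. The other tested probe set (1454037_a_at) differed by 0.21 (SE 0.40, limma adjusted p = 1), and those under the filter level by −0.02 (1419300_at) and 0.16 (1440926_at). The probe sets of Flt1 therefore gave no common direction.

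Kdr, the main signaling receptor for VEGF-A, stood apart from the other markers. It is also known from neural progenitors of the retina, so that it does not mark endothelial cells alone. Its log2 levels were 7.73, 7.93 and 9.33 in ipsilateral and 7.13, 7.25 and 7.54 in contralateral RGCs of rounds 1 to 3 (1449379_at). Every ipsilateral sample was above every contralateral sample, as for 2.66% of all probe sets, and Kdr was the 1 of the 18 probe sets for which this held. The reverse held for 0 of the 18 and for 1.64% of all. The means were 8.33 ± 0.87 (SD, n = 3) and 7.31 ± 0.21 (SD, n = 3), a 2.03-fold difference.

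The difference of Kdr was 0.60, 0.68 and 1.79 in rounds 1 to 3, so that it was larger in the third round than in the others. It did not pass the test, with a mean log2 difference of 1.02 (SE 0.47, 95% confidence interval 0.02 to 2.03, unadjusted p = 0.0461, limma adjusted p = 1). With the samples of a round paired, called the replicate block, the interval was 0.35 to 1.70 and the limma adjusted p 0.22. Without ipsilateral replicate 3 the difference was 0.52 (limma adjusted p = 1), and with array weights it was 1.65 (limma adjusted p = 0.00142). Such weights were estimated from the spread of the arrays about the side means, with no account of the rounds. Their estimation stopped before it converged. That weighting gave the arrays of round 3 weights of 5.67 and 6.12 against 0.281 to 0.657 for the others. An exact two-sided permutation test of Kdr, which ignored the rounds, gave p = 0.1, the smallest that 3 arrays against 3 allow. That value follows from the separation of the sides given above and is no added support.

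**Figure D2:**
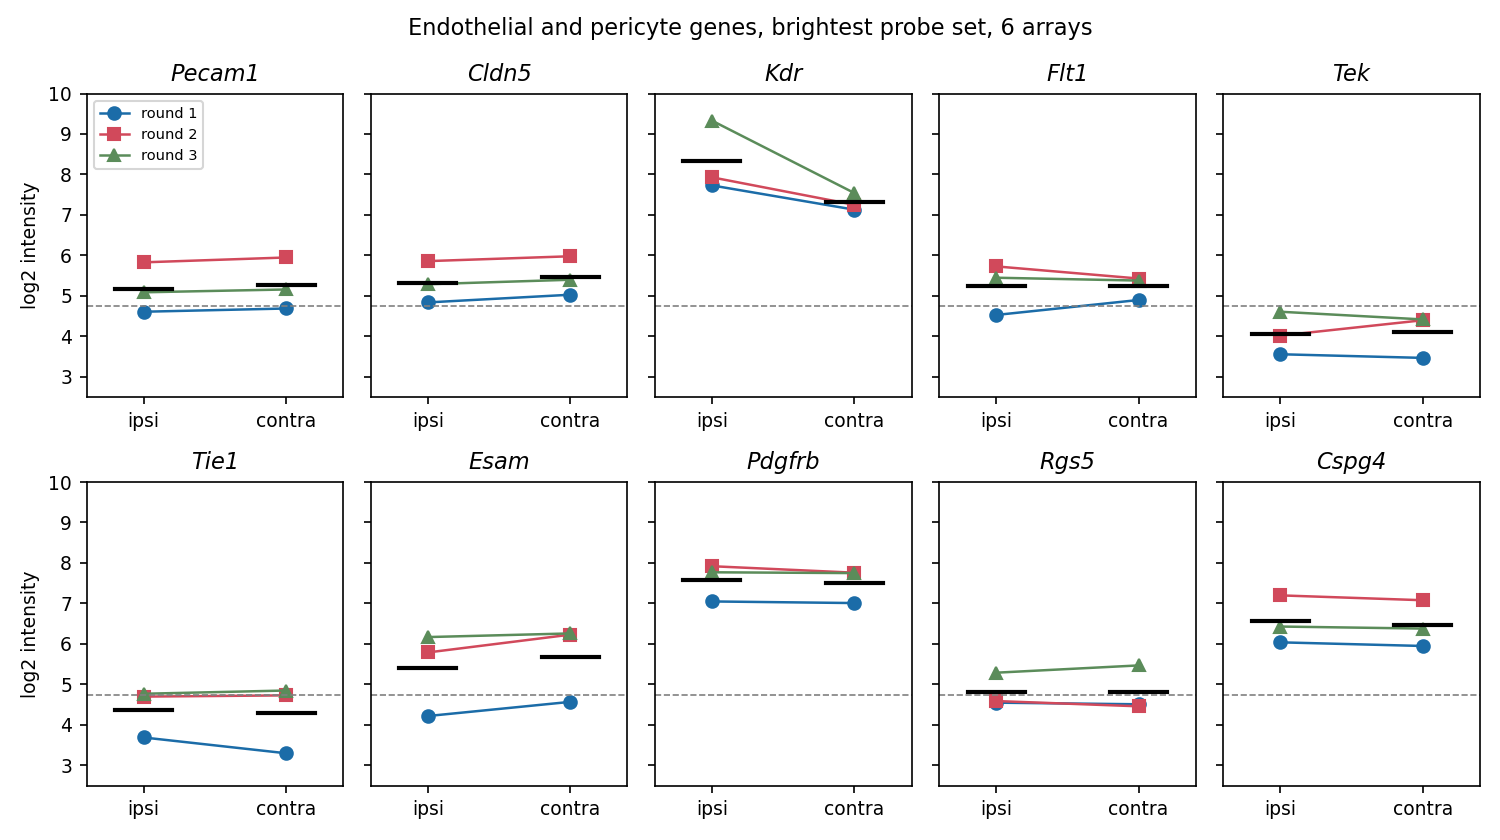
Log2 intensity (vertical axis) of the brightest probe set of each of the 10 genes in RGCs of both sides (ipsi, contra), with 1 symbol for each array, lines joining the samples of a round, black bars for means of 3 arrays and a dashed line at the filter level of 4.74. Kdr slopes down from ipsilateral to contralateral in each round, by 0.60, 0.68 and 1.79, and the lines of the other 9 genes slope by no more than 0.44 in either direction.

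Pdgfrb, the receptor by which pericytes are recruited, was measured well above the filter level by 1 probe set (1417148_at), with log2 levels of 7.05, 7.92 and 7.77 in ipsilateral and 7.01, 7.76 and 7.75 in contralateral RGCs. The sides differed by 0.03, 0.16 and 0.02 in rounds 1 to 3, a mean of 0.07 (SE 0.42, limma adjusted p = 1). A second probe set of Pdgfrb (1436970_a_at) disagreed with it in level and difference. It lay under the 20th percentile on all 6 arrays, with levels of 3.89, 3.05 and 4.30 in ipsilateral and 2.30, 3.08 and 4.15 in contralateral RGCs, and its difference of 0.57 came from round 1 (1.59).

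Cspg4, which encodes the NG2 proteoglycan of pericytes and of oligodendrocyte precursors, had log2 levels of 6.04, 7.20 and 6.43 in ipsilateral and 5.95, 7.08 and 6.38 in contralateral RGCs at its brighter probe set (1450944_at). The ipsilateral sample was higher by 0.06 to 0.12 in each round, a mean of 0.09 (SE 0.45, limma adjusted p = 1), and the second probe set (1423341_at) differed by 0.07 with no constant sign. Rgs5, a pericyte gene for a protein that shuts off G-protein signaling, had 4 probe sets, of which 1 passed the filter level (1420940_x_at). Its levels were 4.55, 4.59 and 5.29 in ipsilateral and 4.51, 4.46 and 5.47 in contralateral RGCs, and its mean difference rounded to 0.00 (SE 0.43, limma adjusted p = 1). On this type of array the suffixes _x_at and _s_at mark probe sets with probes that can match other transcripts, which also holds for the probe sets of Notch3 and Vegfc given below. The remaining probe sets of Rgs5 differed by −0.17 (1417466_at), 0.05 (1420941_at) and 0.29 (1420942_s_at), the last with 0.72 in round 2 and −0.08 in round 3.

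Over the 10 tested probe sets, 0 were called higher in ipsilateral and 0 in contralateral RGCs by limma, as were 0.244% and 0% of all probe sets tested, and 0 were called with the replicate block (0.208% and 0% of all). At the nominal threshold 1 of the 10 was higher in ipsilateral RGCs (Kdr), compared with 2.05% of all probe sets, and 0 in contralateral RGCs (0.239% of all). Of the 18 probe sets, 4 were higher in ipsilateral RGCs in all 3 rounds (16.3% of all probe sets) and 4 were lower (18% of all). Those higher were of Kdr, Flt1, Pdgfrb and Cspg4, and those lower of Pecam1, Cldn5, Esam and Rgs5. The 8 tested genes had a median log2 difference of −0.002 at their brightest probe set, beside −0.01 for all 15346 genes kept.

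The precision of these small differences depended on the pairing of a round. For the 9 tested probe sets other than Kdr, the 95% confidence intervals together spanned −0.67 to 0.58 with the replicate block, which stays under 2-fold in both directions. Without the block they spanned −1.53 to 1.07, which does not. The 9 probe sets had mean differences of up to 0.29 in size.

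**Figure D3:**
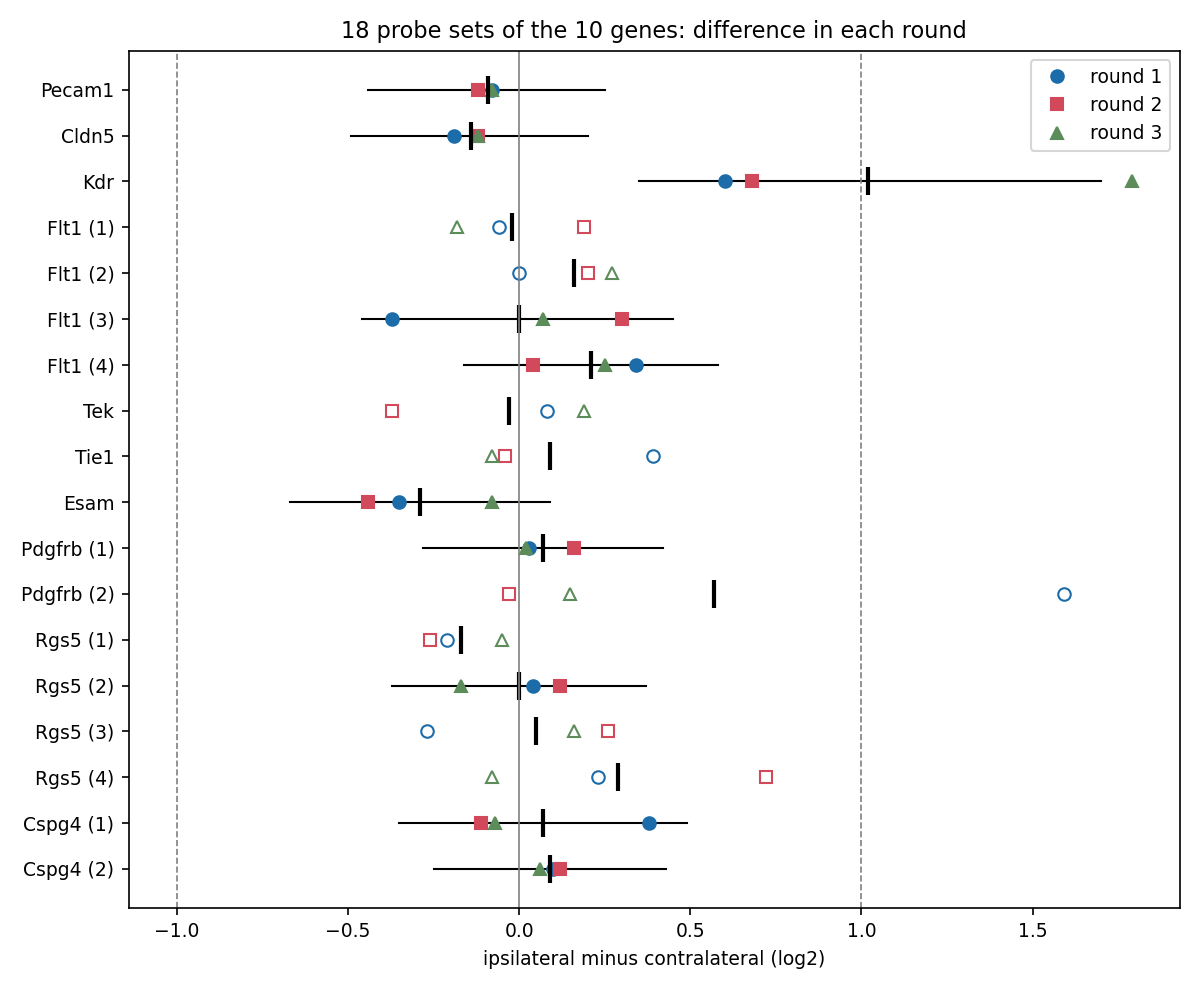
Ipsilateral minus contralateral log2 difference (horizontal axis) of the 18 probe sets in each round, with black ticks for means, lines for 95% confidence intervals from limma with the replicate block, open symbols for probe sets under the filter level and dashed lines at 2-fold; numbered probe sets are in the order of their identifiers. The interval of Kdr lies above 0 and those of the other 9 tested probe sets cross 0 between −0.67 and 0.58.

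Other genes of vessels gave the same kind of counts. Of 32 further endothelial genes, 23 were tested and 0 were called in either direction by limma, without or with the replicate block, and 0 reached the nominal threshold. Their median log2 difference was 0.06 over all measured, with 7 higher in all 3 rounds and 4 lower (17.1% and 18.7% of all named genes). Of the 32, 9 (28.1%) lay under the filter level, compared with 15.6% of all named genes. The median of all probe sets was reached by 4 (12.5%), compared with 58.3% of all named genes. Cdh5, the cadherin of endothelial junctions, Emcn, an endothelial sialomucin, and Plvap, a protein of endothelial fenestrae, lay under the filter level. They were chosen after their values were seen and differed by 0.00, −0.10 and 0.10. Cd93 and Egfl7, also chosen after their values were seen, lay above the median of the array on all 6 arrays. They differed by 0.08 and −0.26.

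The largest differences among the tested endothelial genes were those of Lyl1 (0.80), Ets1 (0.43), Cd34 (0.29) and Eng (0.27), each with a limma adjusted p of 1. Lyl1, a transcription factor of endothelial and blood cells, differed by 0.11, 1.91 and 0.37 in rounds 1 to 3. Ets1, an ETS family transcription factor, was the 1 gene of this list with every ipsilateral array above every contralateral array (3.28% of all named genes), at 5.92, 5.41 and 5.43 against 5.06, 5.17 and 5.24. The lists share genes with blood cells: Fli1, an ETS factor of both lineages picked after its values were seen, was under the filter level and differed by 0.94, the highest of the 32.

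Of 20 further genes of pericytes and vascular smooth muscle, 13 were tested and 0 were called by limma without or with the replicate block, and 0 reached the nominal threshold. Their median log2 difference was 0.02 over all measured. In all 3 rounds 6 were higher and 3 lower (17.1% and 18.7% of all named genes). Notch3, a Notch receptor found in mural cells, had the largest difference of those tested. Its levels were 5.84, 6.56 and 6.64 in ipsilateral and 5.55, 5.91 and 5.6 in contralateral RGCs, with differences of 0.29, 0.65 and 1.04 in rounds 1 to 3. The sides of Notch3 overlapped slightly, and its difference of 0.66 did not pass (SE 0.40, limma adjusted p = 1, and 0.248 when rounds were paired). With array weights the difference of Notch3 was 0.97 (limma adjusted p = 0.0113), which is under 2-fold. Ndufa4l2 (0.38), a mitochondrial protein of pericytes, Tbx2 (−0.27), which patterns dorsal retina as well, and Lhfp (−0.27) followed.

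Genes of vascular ligands, a list not confined to ligands of the receptors among the 10 markers, had mostly small positive differences. None of these passed the test. Of 12 ligand genes, 10 had a higher ipsilateral mean. In all 3 rounds 5 were higher and 1 was lower (17.1% and 18.7% of all named genes). By limma 0 of 10 tested were called, without or with the replicate block, and 0 reached the nominal threshold. Their median log2 difference was 0.27, with 0.33, 0.25 and 0.03 in rounds 1 to 3. Pdgfd, a ligand of Pdgfrb, differed by 0.58, Vegfc, a ligand of the lymphatic VEGF receptor and of Kdr, by 0.47, Pdgfa by 0.38 and Angpt1, the activating ligand of Tek, by 0.30 (each limma adjusted p = 1). Vegfa, the main ligand of Kdr and chosen after its values were seen, lay above the median of all 6 arrays and differed by 0.49, 0.27 and 0.00 in rounds 1 to 3.

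Markers of other cell types moved between the sides in the same samples. Of 11 measured retinal progenitor genes, 11 had a higher ipsilateral mean and 8 were higher in all 3 rounds (17.1% of all named genes). Sox2 (2.68, limma adjusted p = 0.0475) and Sox9 (2.53, limma adjusted p = 0.0275), transcription factors of progenitors, were called, against 0.358% of all genes. At the nominal threshold 7 of the 11 were higher in ipsilateral RGCs, compared with 2.05% of all probe sets. Every ipsilateral array was above every contralateral array for 7 of the 11 (3.28% of all named genes). The list median was 0.86, 1.21 and 2.55 in rounds 1 to 3, and the log2 of its summed intensities was 13.21 to 14.19 in ipsilateral and 12.81 to 13.03 in contralateral RGCs. Kdr and the progenitor list thus both had their largest difference in round 3, and the part of progenitor RNA in the difference of Kdr was not tested. Both calls were lost with the replicate block (limma adjusted p = 0.156 for Sox2 and 0.0748 for Sox9), without ipsilateral replicate 3 (0.249 and 0.127), without contralateral replicate 3 (0.207 and 0.125) and without both arrays of any round. That of Sox2 was also lost with no filter (limma adjusted p = 0.061), a second quantile normalization (0.201) and median centring (0.13), where its difference was 2.68, 2.76 and 2.63. Other settings called more genes of the list. They called 4 of 9 tested with the filter at the 50th percentile, 5 with an intensity trend and robust variances, and 7 with array weights. Without ipsilateral replicate 1 or 2 it was 4.

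Of 19 measured microglia and macrophage genes, 12 of 17 tested were called higher in ipsilateral RGCs by limma, against 0.358% of all genes. With the replicate block 10 were called, where the share over all probe sets, not genes, was 0.208%. Of the genes of this list, 0 were called without round 1, 8 without round 2 and 12 without round 3, each leaving 2 against 2. Their median difference was 4.35, 3.43 and 2.60 in rounds 1 to 3, and the log2 of their summed intensities was 13.23 to 13.95 in ipsilateral and 9.10 to 10.34 in contralateral RGCs, with no overlap. For the 10 endothelial and pericyte markers the log2 of the summed intensities was 9.11, 9.85 and 10.26 in ipsilateral and 8.93, 9.67 and 9.6 in contralateral RGCs of rounds 1 to 3. The ipsilateral sum was higher in every round, by 0.19, 0.17 and 0.66. Without Kdr the sums of the other 9 genes differed by −0.02, 0.03 and −0.01, so that nearly all of the difference in the sum was that of Kdr. The part of microglial RNA in the values of Lyl1, Ets1 and Fli1 was not tested. Of 7 measured red blood cell genes, 0 reached the median of all probe sets and 0 were called by limma, also at the nominal threshold, and their median differed by 0.13, 0.02 and −0.05 over the rounds.

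Fibroblast collagen genes of the mesenchyme list were higher in the ipsilateral sample of round 1. Col1a2 differed by 3.86, 1.75 and 0.83 in rounds 1 to 3 and Col3a1 by 4.04, 0.10 and 0.02, with limma adjusted p of 0.238 and 1. Col1a1 differed by 2.64, −0.32 and 0.23, while Pdgfra was lower in every round, with differences of −0.53, −0.19 and −0.40. The median of the list was 0.51, −0.19 and 0.04 in rounds 1 to 3. Of 11 measured mesenchyme genes, 8 had a higher ipsilateral mean and 0 of 8 tested were called. The nominal threshold was reached by 1 (Col1a2), compared with 2.05% of all probe sets higher in ipsilateral RGCs. Col1a2 was called with an intensity trend and robust variances (limma adjusted p = 0.0401) and with array weights (0.046). In round 1 the 10 endothelial and pericyte markers had a median log2 difference of 0.04, from −0.37 for Flt1 to 0.60 for Kdr at the brightest probe sets.

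**Figure D4:**
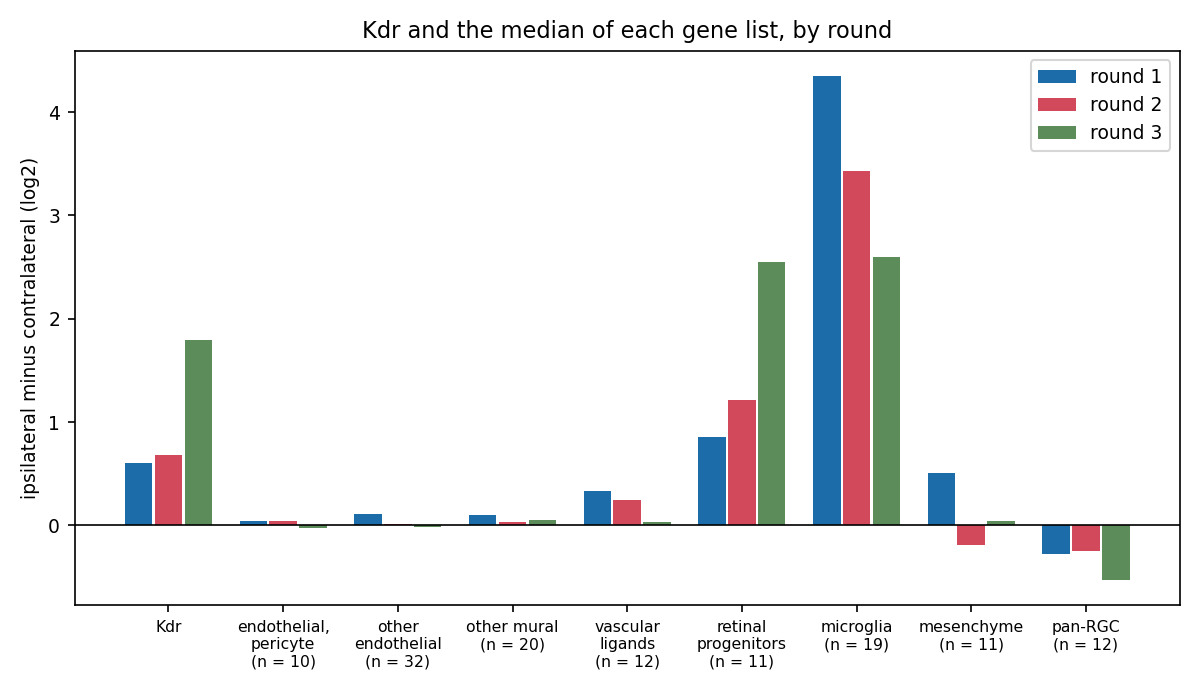
Ipsilateral minus contralateral log2 difference (vertical axis) of Kdr and the median difference of each gene list over its n measured genes, with 1 bar for each round. The bars of the endothelial, pericyte and mural lists lie near 0, those of Kdr and of retinal progenitors are tallest in round 3, and those of microglia are tallest in round 1.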

How the data were processed

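Amplified cDNA of 3 ipsilateral and 3 contralateral RGC samples was hybridized to Affymetrix mouse arrays. The authors deposited a log2 intensity for every probe set, computed with RMA in Affymetrix Expression Console 1.1. Which arrays entered a normalization together is not given in the sources used here. The table held 45101 probe sets, from which 64 controls were removed. The array annotation named 1 gene for 34945 probe sets, and 34741 of these identifiers were found in the RefSeq gene table (GRCm38.p6). No build comes with the values, so no positions are given. Tests used lmFit and eBayes of limma 3.58.1 (R 4.3.3) without a block, since the methods name no paired test. They were run on simulated data as well, but those held no differences between rounds, so that check does not cover the pairing of the arrays. A gene stands in lists by its probe set with the highest mean.

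The replicate numbers pair the samples, because the study's methods prepared both sides of a round together. Deviations from the side means correlated at 0.566 to 0.705 between arrays of a number and at −0.403 to −0.219 otherwise. The deviations of a side cancel out, so negative values on average follow from the positive ones and are no added support. The median SE was 0.44 without and 0.17 with the replicate block. The number of arrays limits the precision.

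The 10 genes and all lists were chosen with earlier results of these data known. The lists were 32 endothelial, 20 mural, 12 ligand, 20 microglia and macrophage, 10 red blood cell, 12 mesenchyme, 13 pan-RGC and 12 progenitor genes and 27 genes of organs outside the eye. All 10 genes are named at every probe set, and of the other lists up to 4 genes with the largest difference among those tested. Alternatives were the replicate block, other filters, normalizations and variance models, array weights, other thresholds, all probe sets of a gene, and arrays or, chosen after seeing the data, rounds left out.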

Additional observations from a re-analysis of the deposited data

How the results depend on the processing

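The count of 0 endothelial and pericyte probe sets called higher in contralateral RGCs held under every alternative tried. The count of 0 called higher in ipsilateral RGCs became 1, which was Kdr, with array weights (whose estimation stopped before it converged) and at 2-fold with p under 0.05 before adjustment, and stayed 0 under the others, the replicate block and each array left out included. The replicate block changed no call of the 10 probe sets tested. The median log2 difference of −0.002 was 0.090 with the filter at the 50th percentile, which leaves 3 genes, −0.046 with a second quantile normalization and also with median centring, −0.072 without round 2, and between −0.24 and 0.315 with 1 array left out. Leaving out 1 array of a round unbalances the rounds, which lie further apart than the sides. Kdr stayed higher in ipsilateral RGCs under all 16 alternatives, by 0.52 to 1.65, with limma adjusted p of 0.00142 to 1.

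Small differences of uncalled genes changed sign. With 1 array left out, the log2 difference lay between −0.42 and 0.25 for Pecam1, −0.41 and 0.11 for Cldn5, −0.85 and 0.29 for Esam, −0.18 and 0.34 for Pdgfrb, −0.24 and 0.32 for Rgs5, −0.25 and 0.35 for the brighter and −0.005 and 0.35 for the dimmer tested Flt1 probe set, −0.23 and 0.40 for the brighter and −0.26 and 0.26 for the dimmer Cspg4 probe set, −0.15 and 0.64 for Angpt1, and −0.06 and 0.54 for Vegfa. Array weights gave 0.06 for Flt1, −0.06 for the dimmer Cspg4 probe set, −0.02 for Cd34 and −0.25 for Angpt1. Without round 1 the values were 0.18 for Flt1, −0.09 for the dimmer Cspg4 probe set and −0.03 for Angpt1, and without round 3 it was 0.08 for Rgs5. The 3 junction genes kept their sign when both arrays of a round were left out. Without rounds 1, 2 and 3 in turn, Pecam1 differed by −0.10, −0.08 and −0.10 and Cldn5 by −0.12, −0.16 and −0.16. Esam differed by −0.26, −0.22 and −0.40. The cause of the sign changes was not tested. Signal near background limits Tek, Tie1 and the 6 other probe sets under the filter level, whose differences were not tested.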
